A study of Mus musculus with 18 samples.

Results

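The 86 genes described here are those whose symbol in the deposited expression table is a collagen alpha chain (Col), a laminin chain (Lama, Lamb or Lamc), a fibulin (Fbln), fibronectin (Fn1) or an integrin alpha or beta chain (Itga or Itgb). They were taken by name from the 54532 genes of the table, and comprised 44 collagen, 11 laminin, 4 fibulin, 18 integrin alpha and 8 integrin beta genes beside Fn1. The choice of these families was made with earlier results of these data known, so their shares of calls are a description. Of these, 37 had a mean of at least 1 FPKM (fragments per kilobase of transcript, scaled for library depth) over the 18 libraries and were tested for differences, and 49 did not reach that mean.

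Collagens, laminins, fibulins and fibronectin make up most of the scaffold that surrounds animal cells. Collagen IV and laminins form the linked networks of the basement membrane, the sheet on which epithelial cells rest, while fibrillar collagens, collagen VI and fibronectin build the looser matrix of connective tissue and fibulins bridge these components. Integrins are receptors made of 1 alpha and 1 beta chain that bind the matrix outside the cell and the actin cytoskeleton inside it, and carcinoma cells of the ovary use them to attach to the matrix of the peritoneum.

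The cells were KPCA.B, a mouse line labelled as high-grade serous ovarian cancer, and polyadenylated RNA was sequenced. They carried a control short hairpin RNA (shControl, wild type for Ndufa5) or 1 of 2 hairpins against Ndufa5 (shNdufa5_1 and shNdufa5_2), the gene of an accessory subunit of mitochondrial complex I. Each of the 3 genotypes was grown in PCM, medium conditioned by proliferating cells given the solvent DMF, or in SCM, medium conditioned by cells that the platinum drug cisplatin had made senescent. The study asked how such medium alters transcription in bystander cells and what part Ndufa5 has in it. All 6 groups of 3 libraries shared a 1:1 mix of the conditioned medium with fresh high-glucose DMEM, which held 4% heat-inactivated serum, 2 ng/mL EGF and an insulin, transferrin and selenium supplement. A single line was used; whether the hairpin cells were pools or clones, which cells conditioned the medium and how long cells stayed in it, the sources used here do not say. Since the labels do not tell whether the replicates of a group were separate cultures, a p-value here speaks only of the spread between samples, and that spread may be technical.

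Depth ran from 13.8 to 38.9 M fragments per library, and Pearson's r of log2(FPKM + 1) between libraries of a group was 0.979 to 0.99 across genes. Ndufa5 itself was at 18.8 FPKM on average in shControl in PCM and fell with shNdufa5_1 by 1.39 on the log2 scale in PCM and by 1.68 in SCM (limma, adjusted p = 1.47e-07 and 9.8e-09). In cells labelled shNdufa5_2 the difference from shControl was -0.079 in PCM (adjusted p = 0.647, 95% interval -0.34 to 0.18) and -0.43 in SCM (adjusted p = 0.0125), so these cells, with 6 libraries, are named by their label throughout. From PCM to SCM, Ndufa5 rose by 0.30 in shControl (limma, adjusted p = 0.0436) and differed by -0.054 in cells labelled shNdufa5_2 (0.794). Of 12 epithelial and ovarian carcinoma markers, Krt7, Krt8, Krt18, Krt19, Cldn3, Msln and Pax8 were above 7 FPKM in every library, whereas Muc16 and Wt1 were listed at 0 and Epcam, Cdh1 and Cldn4 did not exceed 0.399, 1.37 and 0.585 FPKM. Of the markers of other cells, Thy1 (fibroblasts) and Emcn (endothelium) were listed at 0 throughout, with Fap at most 0.0104, Ptprc (leukocytes) at most 0.00333 and Pecam1 (endothelium) at most 0.0231 FPKM. Others on the same lists were present, the fibroblast markers Pdpn at 21.2 to 38.8, Dcn at 0.673 to 2.97 and Pdgfra at 0.512 to 1.77, the endothelial marker Plvap at 2.2 to 10.5 and the immune marker Cd68 at 0.751 to 10.2 FPKM.

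The highest levels among the members were those of fibronectin, of 2 integrin chains and of a laminin chain. Fn1 averaged 1111 FPKM over the 18 libraries and was number 19 of all genes in the table. It was followed by Itgb1 (201 FPKM), the beta chain shared by most matrix-binding integrins, Itga3 (165), whose product pairs with it to bind laminin, and Lama5 (118), the alpha chain of the laminins with alpha 5. FPKM is a value per length, here counted over all annotated exons of a gene. The transcript present may be shorter, so levels of different genes compare only roughly. In all, 4 members averaged above 100 FPKM, 15 from 10 to 100, and 18 of the tested members were under 10.

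Partner chains were often at unequal levels. The chains that assemble into laminin with alpha 5, beta 1 and gamma 1, Lama5, Lamb1 and Lamc1, averaged 118, 80.5 and 96.2 FPKM, while the epithelial laminin chains Lama3 and Lamb3 were at 0.0120 and 0.316 FPKM. Itga6 averaged 58.6 FPKM and Itgb4, its partner in hemidesmosomes, 3.04. Col1a1 was at 1.85 FPKM although Col1a2, the other chain of collagen I, was at 0.00249, and Col5a1 was at 14.7 with Col5a2 at 0.0123. Col6a1 and Col6a2 averaged 7.67 and 2.14 FPKM and Col6a3, the third chain of collagen VI, 0.347. The exons counted for Col6a1 and Col6a2 add up to 4380 and 8326 bases, and the part of length in such gaps was not tested. Itgb7, whose known partners are the alpha 4 and alpha E chains, averaged 12.5 FPKM, while Itga4 was listed at 0 in all 18 libraries and Itgae did not exceed 0.307.

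Among the 49 members that were not tested, 7 were listed at 0 in every library, namely Col9a1, Col19a1 and Col26a1, Lama1, and the integrin alpha chains Itga4, Itgad and Itgam. A further 25 had at most 10 fragments in any library, which makes 32 of the 49 at or under that number. Another 9 averaged above 0.1 FPKM, and the highest single value of an untested member was 1.18 FPKM, for Itgb2, the beta chain of leukocyte integrins. All 5 leukocyte alpha chains were among the untested members, as were 7 of 9 collagens that decorate fibrils (the FACIT group).

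**Figure D1:**
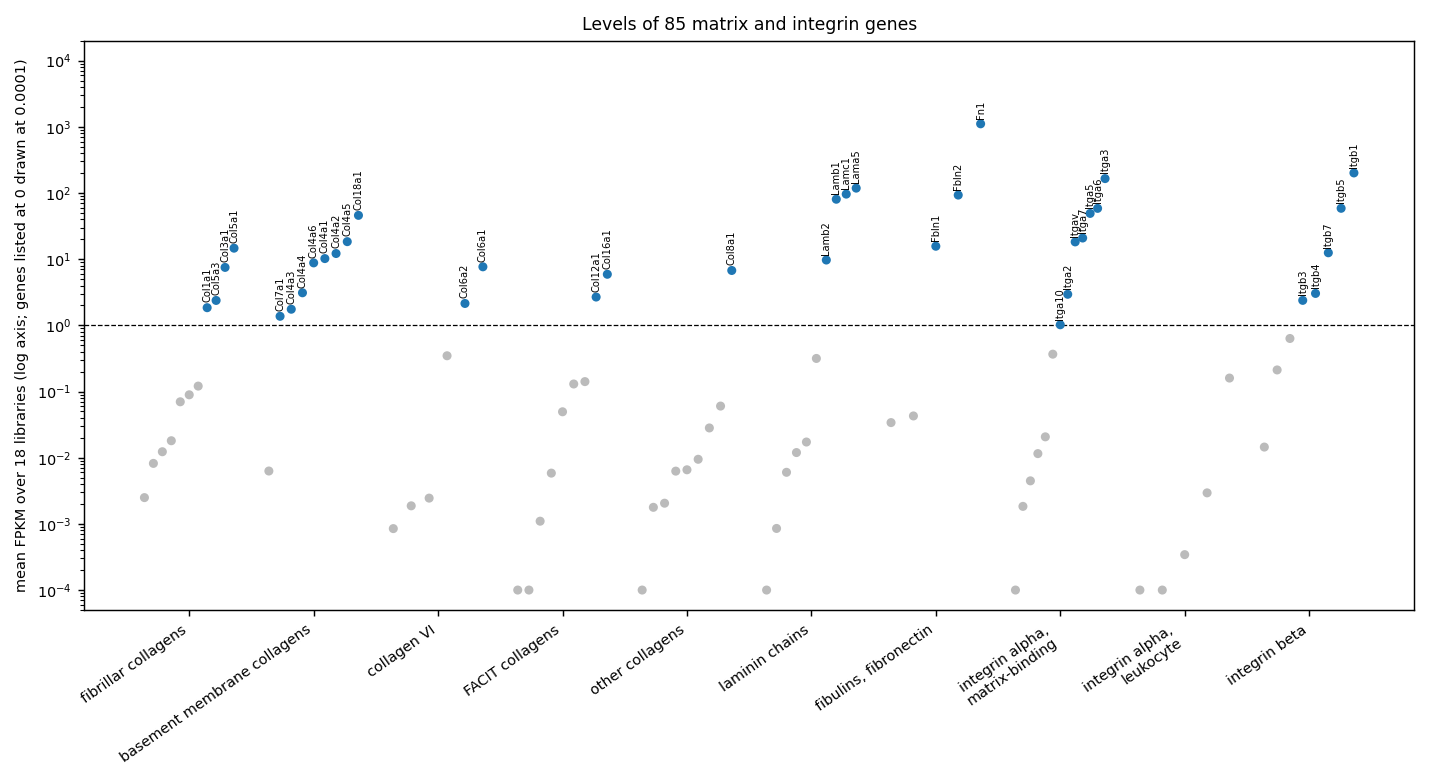
Mean level of 85 of the 86 genes over the 18 libraries, in FPKM on a log axis, by group of genes; blue points are 36 of the 37 tested genes, named, grey points the others, and the dashed line marks 1 FPKM. Fn1 stands highest at 1111 FPKM, and genes listed at 0 are drawn at the lower edge, at 0.0001.

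The first comparison asked how the senescent medium altered these genes. In shControl cells, 26 of the 37 tested members rose in SCM, 3 fell (Itga2, Itgav and Fbln2) and 8 did not pass the test; among all 11084 genes tested 31.7% rose and 30.2% fell. Fbln1, Col6a2, Col6a1, Itga7 and Itgb7 had the largest rises, by 0.96 to 1.21 on the scale of log2(FPKM + 1), which understates the change of low genes. The median difference of the tested members was 0.38, against 0.0034 over all genes tested. In shNdufa5_1 cells 24 members rose and 3 fell (Col4a4, Itgav and Itgb7), with 22.5% and 19.8% of all genes, and the members' median was 0.29. With the label shNdufa5_2, 31 rose and 0 fell, with 11.7% and 11.1% of all genes, and the median was 0.33; no member was lower there at an unadjusted p under 0.05 either. Fewer cells of a type and less RNA per cell cannot be told apart in these bulk libraries.

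The deposited values set the median gene to the same level in every library, so each difference is relative to that gene. Rescaled to the total fragments of each library, which moved the median of all genes by -0.20 in shControl, 18 members were called higher and 7 lower in SCM. Rescaled to the FPKM sum, which moved it by -0.50, the counts were 6 and 19. Of all 11084 genes tested, 1939 were called higher and 5411 lower on total fragments, and 488 and 7805 on FPKM sums. Each FPKM sum includes the gene Gm23935, at 14890 to 26580 FPKM for shControl grown in PCM and 71190 to 105400 in SCM. The sums of these groups were 290200 to 303800 and 437900 to 484500. With shNdufa5_1, Gm23935 stood at 31610 to 99870 and 29580 to 59570 FPKM. Under the label shNdufa5_2 it stood at 59660 to 73610 and 26740 to 48810. The part of Gm23935 in the shifts on FPKM sums was not tested. Both rescalings multiply all values of a library by 1 factor, so relative to the median gene the members' median changes little by construction. It was 0.36 and 0.32 above that gene, against 0.38 on the deposited scale, with 31 of 37 members above it each time. Quantile normalization gave 20 higher and 7 lower, where 2963 of all genes were called higher and 3480 lower. The members' median was then 0.31 above that of all genes, with 28 of 37 members above it, against 32 on the deposited scale. Under these scalings the split in shNdufa5_1 was 23 to 5, 18 to 2 and 23 to 4, where all genes split 1997 to 2689, 1212 to 1949 and 2247 to 2381. In cells labelled shNdufa5_2 it was 29 to 0, 26 to 0 and 30 to 0, where all genes split 894 to 2027, 694 to 231 and 1199 to 1206. The lists by gene that follow, here and with later comparisons, do not cover Lamb2, Col4a5, Col7a1 or Itga10.

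Among the calls in shControl, the sign turned on total fragments for Itga6 and Lamb1; on FPKM sums for Col4a1, Col4a2, Col4a6, Col5a1, Fn1, Itga3, Itga6, Itgb3, Itgb5, Lama5, Lamb1 and Lamc1; with quantile normalization for Fn1, Itga3, Lamb1 and Lamc1; with the trend of GC content and length removed for Itgav. With the sign kept, the call was lost on total fragments for Col4a2, Col4a6, Itga3, Itgb3 and Lamc1; on FPKM sums for Col16a1, Col18a1, Col1a1, Col3a1, Col8a1, Itga5 and Itgb4; with quantile normalization for Itga6 and Lama5; with the trend of GC content and length removed for Itga2. Among those in shNdufa5_1, the sign turned with the trend of GC content and length removed for Itgav. The sign being kept, the call was lost on total fragments for Col4a2; on FPKM sums for Col1a1, Col4a1, Col4a2, Col4a6, Itga3, Itgav and Lamb1; with quantile normalization for Col4a4 and Itga3; with the trend of GC content and length removed for Col1a1, Col4a2 and Itga3. Among those in cells labelled shNdufa5_2, the call was lost on total fragments for Col4a1 and Itgav; on FPKM sums for Col4a1, Itga6, Itgav, Itgb1 and Itgb7; with quantile normalization for Itgb1; with the trend of GC content and length removed for Col4a1.

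The 3 genotypes share no libraries in this comparison, but they were fitted together and share 1 estimate of the spread. Of the 37 members 21 rose in all 3, where 6.46% of all genes did, while 0 fell in all 3, where 3.78% did. The 21 were Col1a1, Col3a1, Col4a1, Col4a6, Col5a1, Col5a3, Col6a1, Col6a2, Col8a1, Col16a1 and Col18a1, the laminin chains Lama5, Lamb1 and Lamc1, Fbln1, and the integrin chains Itga3, Itga5, Itga7, Itgb3, Itgb4 and Itgb5. Another 12 rose in at least 1 genotype, and Col7a1 and Col12a1 were among 3 that passed the test in none, while Itga2 fell in shControl and did not pass elsewhere. Across the 37 members, Pearson's r of the differences was 0.64 between shControl and shNdufa5_1, 0.63 between shControl and cells labelled shNdufa5_2, and 0.71 between the latter 2, and over all genes tested 0.61, 0.36 and 0.29; genes are not independent replicates, and these values are a description.

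**Figure D2:**
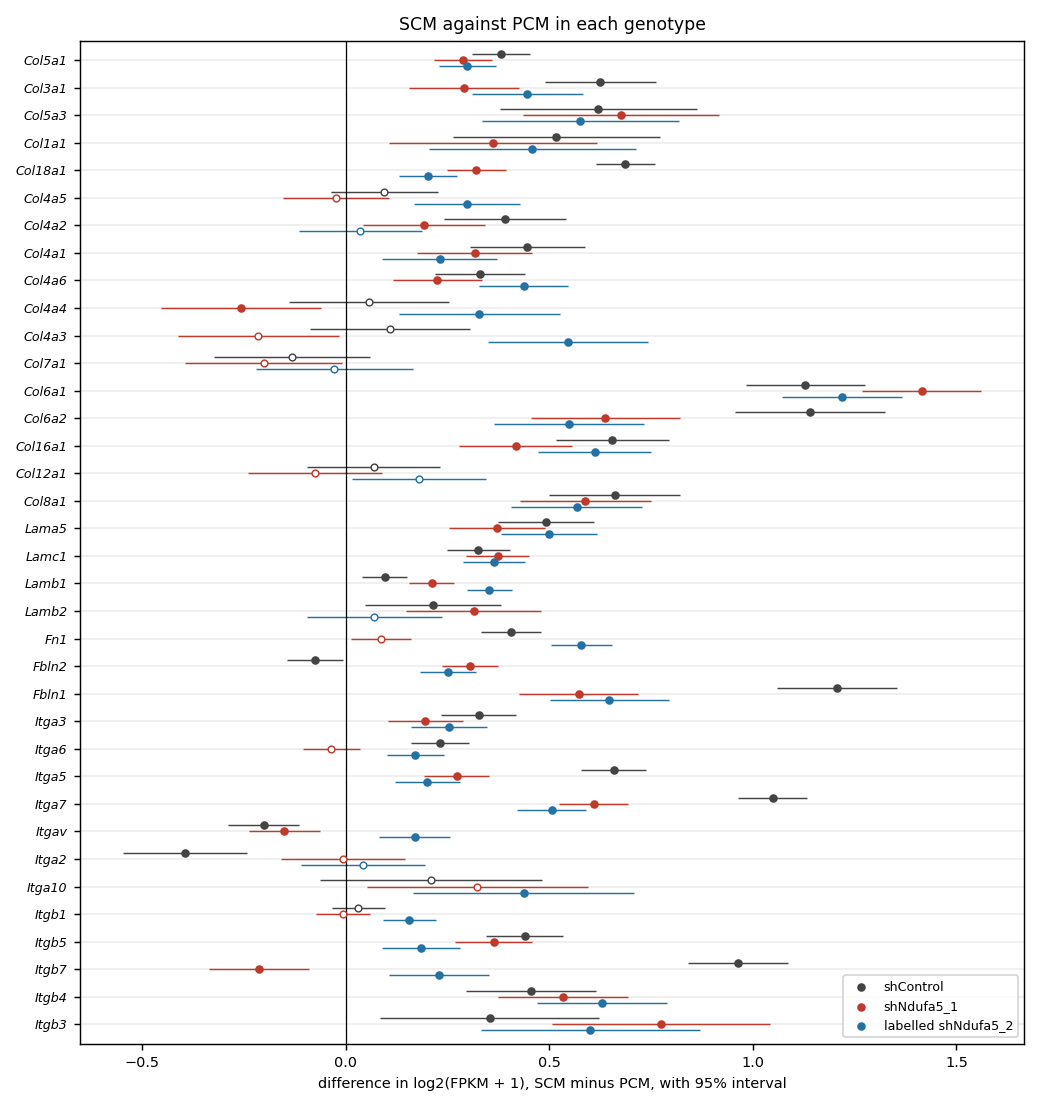
Difference between SCM and PCM in log2(FPKM + 1) for 36 of the 37 tested genes in shControl (grey), shNdufa5_1 (red) and cells labelled shNdufa5_2 (blue), with 95% intervals; filled points passed the test at an adjusted p under 0.05. Most points lie to the right of 0, with 26, 24 and 31 genes called higher. On the scale of FPKM sums 6 were called higher and 19 lower in shControl, where 488 and 7805 of all 11084 genes tested were.

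Markers of other cells moved with the medium as follows. The summed level of 8 fibroblast markers, which was mainly Pdpn, was 26 to 27.9 FPKM in shControl in PCM and 39.6 to 41.9 in SCM, 23.3 to 24 and 28.6 to 29.6 in shNdufa5_1, and 36.8 to 38 and 37.9 to 40.6 in cells labelled shNdufa5_2. The sum of 8 immune markers was 2.01 to 2.25 and 5.92 to 7.07 FPKM in shControl and was almost entirely Cd68, a lysosomal protein, with each of the others at most 0.294. It was 0.974 to 2.17 and 1.03 to 2.17 in shNdufa5_1, and 6.18 to 8.7 and 7.5 to 10.6 in cells labelled shNdufa5_2. The sum of 6 endothelial markers, almost entirely Plvap, was 3.55 to 4.47 and 5.67 to 8.48 FPKM in shControl, 2.2 to 2.7 and 4.38 to 5.78 in shNdufa5_1, and 6.87 to 7.42 and 8.01 to 10.5 in cells labelled shNdufa5_2. That of 4 platelet markers did not exceed 0.598 FPKM. Of the 12 carcinoma markers 7 were tested. In SCM 7 of these rose in shControl, 5 in shNdufa5_1 and 2 in cells labelled shNdufa5_2, where 31.7%, 22.5% and 11.7% of all genes did. The sum of the 12 was 1133 to 1216 FPKM in PCM and 1733 to 1841 in SCM in shControl. It was 1750.0 to 1795 and 2072 to 2139 in shNdufa5_1, and 1287 to 1314 and 1285 to 1358 in cells labelled shNdufa5_2. The part of these shifts in the results on the members was not tested.

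Fibronectin is bound mainly by the integrin of alpha 5 and beta 1, coded by Itga5 and Itgb1. Levels of Fn1 in PCM were 1023, 984 and 1003 FPKM in shControl, 845, 924 and 876 in shNdufa5_1 and 975, 1000.5 and 1050.0 in those labelled shNdufa5_2. Those of Fn1 in SCM were 1345, 1299 and 1343 FPKM in shControl, 923, 944 and 939 in shNdufa5_1 and 1487, 1477 and 1552 in those labelled shNdufa5_2. The SCM libraries of shControl and those labelled shNdufa5_2 stood apart above their PCM libraries, whereas the shNdufa5_1 groups overlapped. Fn1 rose in SCM in shControl by 0.41 ± 0.035 (SE, adjusted p = 8.3e-08) and in cells labelled shNdufa5_2 by 0.58 ± 0.035 (SE, adjusted p = 8.54e-08), and in shNdufa5_1 the difference was 0.086 ± 0.035 (SE, adjusted p = 0.0594). In shControl the sign turned to -0.38 with quantile normalization and to -0.21 on the scale of FPKM sums, on which the median of all genes was -0.50.

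Itga5 stood at 41.2, 41.7 and 40.05 FPKM in shControl, 37.1, 39.1 and 36.1 in shNdufa5_1 and 49, 47.6 and 51.1 in those labelled shNdufa5_2 in PCM. The Itga5 values in SCM were 64, 65.8 and 65.9 FPKM in shControl, 46.5, 43.9 and 45.7 in shNdufa5_1 and 58.5, 55.1 and 56.4 in those labelled shNdufa5_2. In each genotype the SCM libraries were all above the PCM libraries, with the widest gap in shControl. The rise in SCM was 0.66 ± 0.038 (SE, adjusted p = 7.9e-10) in shControl, 0.27 ± 0.038 (SE, adjusted p = 4.46e-05) in shNdufa5_1 and 0.20 ± 0.038 (SE, adjusted p = 0.00148) in cells labelled shNdufa5_2. In PCM, Itgb1 was at 191, 192 and 193 FPKM in shControl, 232, 223 and 237 in shNdufa5_1 and 167, 171 and 170.1 in those labelled shNdufa5_2. In SCM, Itgb1 was at 196, 197 and 195 FPKM in shControl, 230.0, 222 and 236 in shNdufa5_1 and 194, 192 and 181 in those labelled shNdufa5_2. Libraries of shNdufa5_1 were the highest in each medium and those labelled shNdufa5_2 the lowest. The difference of Itgb1 in SCM was 0.030 in shControl (adjusted p = 0.411) and -0.0073 in shNdufa5_1 (0.875), and it rose by 0.16 in cells labelled shNdufa5_2 (0.00203).

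Fibulins are glycoproteins that bind fibronectin, laminins and elastic fibres. Levels of Fbln1 in PCM were 10.2, 10.1 and 9.32 FPKM in shControl, 10.5, 12.1 and 11.1 in shNdufa5_1 and 13.5, 10.9 and 12.3 in those labelled shNdufa5_2. Those of Fbln1 in SCM were 23.1, 25.3 and 23.8 FPKM in shControl, 17.2, 18.1 and 16.2 in shNdufa5_1 and 19.4, 19.1 and 20.4 in those labelled shNdufa5_2. Every SCM library was above every PCM library, and the shControl libraries in SCM were the highest. Fbln1 rose in SCM by 1.21 ± 0.069 (SE, adjusted p = 7.44e-10) in shControl, by 0.57 ± 0.069 (SE, adjusted p = 1.19e-05) in shNdufa5_1 and by 0.65 ± 0.069 (SE, adjusted p = 1.17e-05) in cells labelled shNdufa5_2.

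Fbln2 stood at 110.0, 111 and 107 FPKM in shControl, 63.4, 65.1 and 63.3 in shNdufa5_1 and 88.8, 92.9 and 95.2 in those labelled shNdufa5_2 in PCM. The Fbln2 values in SCM were 105, 102 and 104 FPKM in shControl, 78.7, 79.9 and 79 in shNdufa5_1 and 110.5, 105 and 114 in those labelled shNdufa5_2. Those of shNdufa5_1 were the lowest in both media, and in shControl SCM lay slightly below PCM. In SCM Fbln2 rose by 0.30 ± 0.032 (SE, adjusted p = 3.62e-06) in shNdufa5_1 and by 0.25 ± 0.032 (SE, adjusted p = 7e-05) in cells labelled shNdufa5_2, and fell by 0.077 in shControl (adjusted p = 0.0497). That last call was lost on leaving out any of 12 of the 18 libraries, among them shControl replicates 1 and 2 in PCM and each shControl replicate in SCM (difference -0.088 to -0.066, adjusted p = 0.053 to 0.137). It was also lost with either other pseudocount, without the filter on the mean, with the replicate block and with only the groups of the contrast (adjusted p = 0.0502 to 0.0758).

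Laminins are trimers of an alpha, a beta and a gamma chain. In PCM, Lama5 was at 94.8, 94.8 and 90.6 FPKM in shControl, 102, 117 and 109 in shNdufa5_1 and 89.6, 98.9 and 104 in those labelled shNdufa5_2. In SCM, Lama5 was at 133, 129 and 132 FPKM in shControl, 140.4, 147 and 137 in shNdufa5_1 and 135, 133 and 146 in those labelled shNdufa5_2. All SCM libraries were above all PCM libraries. The rise in SCM was 0.49 ± 0.055 (SE, adjusted p = 1.65e-06) in shControl, 0.37 ± 0.055 (SE, adjusted p = 8.17e-05) in shNdufa5_1 and 0.50 ± 0.055 (SE, adjusted p = 1.77e-05) in cells labelled shNdufa5_2. The value in shControl was -0.11 on the scale of FPKM sums, above the median of all genes there.

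Levels of Lamc1 in PCM were 84.2, 80.7 and 79.9 FPKM in shControl, 77.3, 85.8 and 82.2 in shNdufa5_1 and 87.1, 90.8 and 91.3 in those labelled shNdufa5_2. Those of Lamc1 in SCM were 102, 100.2 and 105 FPKM in shControl, 105, 107 and 106 in shNdufa5_1 and 116, 114 and 117 in those labelled shNdufa5_2. Again all SCM libraries were above all PCM libraries. Lamc1, the gamma chain of most laminins, rose by 0.33 ± 0.036 (SE, adjusted p = 1.37e-06), 0.37 and 0.36 in the 3 genotypes.

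Lamb1 stood at 72.7, 71.4 and 73 FPKM in shControl, 75.9, 78.7 and 78.3 in shNdufa5_1 and 71.3, 72.8 and 74.1 in those labelled shNdufa5_2 in PCM. The Lamb1 values in SCM were 76, 77.7 and 78.5 FPKM in shControl, 91, 89.2 and 89.8 in shNdufa5_1 and 92, 92.1 and 95.1 in those labelled shNdufa5_2. Within each genotype the SCM libraries were above the PCM libraries, by the smallest margin in shControl. Lamb1, the beta chain that joins Lama5 and Lamc1, rose by 0.10 ± 0.026 (SE, adjusted p = 0.00519) in shControl, by 0.21 in shNdufa5_1 and by 0.35 in cells labelled shNdufa5_2. In shControl the sign of both turned with quantile normalization (-0.21 for Lamb1 and -0.011 for Lamc1) and on FPKM sums (-0.51 and -0.28), and that of Lamb1 also on total fragments (-0.15). Lama3 and Lamb3 were not tested, with the 18 libraries at 0 to 0.0623 FPKM for Lama3 and 0.0983 to 0.609 for Lamb3. Lamb2, another beta chain, rose in shControl and shNdufa5_1 (0.21 and 0.31) and was at 0.070 in cells labelled shNdufa5_2 (adjusted p = 0.571). These are values on the deposited scale, and Lamb2 was not checked by gene on the other scales.

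The laminin-binding integrins are alpha 3, alpha 6 and alpha 7 with beta 1, and alpha 6 with beta 4. In PCM, Itga7 was at 15.4, 14.6 and 14 FPKM in shControl, 14.5, 14.4 and 14.7 in shNdufa5_1 and 17.5, 17 and 17.1 in those labelled shNdufa5_2. In SCM, Itga7 was at 32.4, 30.4 and 31.2 FPKM in shControl, 23.3, 23.3 and 21.7 in shNdufa5_1 and 24.6, 24.7 and 25.3 in those labelled shNdufa5_2. Every SCM library was above every PCM library, and the shControl libraries in SCM were the highest. Itga7 rose in SCM by 1.05 ± 0.040 (SE, adjusted p = 8.89e-12) in shControl, 0.61 ± 0.040 (SE, adjusted p = 5.97e-08) in shNdufa5_1 and 0.51 ± 0.040 (SE, adjusted p = 7.62e-07) in cells labelled shNdufa5_2.

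Levels of Itga6 in PCM were 37.9, 37.1 and 37.3 FPKM in shControl, 87.8, 87.2 and 87.9 in shNdufa5_1 and 43.7, 46.2 and 46.8 in those labelled shNdufa5_2. Those of Itga6 in SCM were 43.6, 43 and 45.9 FPKM in shControl, 82.5, 87.3 and 86.6 in shNdufa5_1 and 50.8, 51.6 and 51.7 in those labelled shNdufa5_2. Libraries of shNdufa5_1 were the highest in both media and overlapped between the media, while SCM lay above PCM in the other genotypes. Itga6 rose in SCM by 0.23 ± 0.033 (SE, adjusted p = 1.97e-05) in shControl and 0.17 ± 0.033 (SE, adjusted p = 0.00176) in cells labelled shNdufa5_2, and was at -0.036 ± 0.033 (SE, adjusted p = 0.404) in shNdufa5_1. In shControl its sign turned on total fragments (-0.013) and FPKM sums (-0.36).

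Itga3 stood at 146, 150.4 and 144 FPKM in shControl, 164, 180.4 and 161 in shNdufa5_1 and 137, 135 and 136 in those labelled shNdufa5_2 in PCM. The Itga3 values in SCM were 181, 188 and 184 FPKM in shControl, 195, 195 and 188 in shNdufa5_1 and 161, 154 and 173 in those labelled shNdufa5_2. Within each genotype the SCM libraries were above the PCM libraries. Itga3 rose by 0.33, 0.19 and 0.25, and in shControl its sign turned with quantile normalization (-0.19) and on FPKM sums (-0.28). In PCM, Itgb4 was at 2.26, 2.44 and 1.9 FPKM in shControl, 2.74, 2.62 and 2.71 in shNdufa5_1 and 2.25, 1.72 and 2.01 in those labelled shNdufa5_2. In SCM, Itgb4 was at 3.21, 3.35 and 3.58 FPKM in shControl, 4.17, 4.48 and 4.38 in shNdufa5_1 and 3.59, 3.67 and 3.59 in those labelled shNdufa5_2. All SCM libraries were above all PCM libraries. Itgb4, which anchors hemidesmosomes, rose by 0.46 ± 0.075 (SE, adjusted p = 8.29e-05), 0.53 and 0.63.

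Collagen IV has 6 chains, coded by 3 pairs of genes that lie head to head and are transcribed away from each other. On chromosome 8, Col4a1 (GRCm38, 11198423 to 11312826, minus strand) and Col4a2 (11312805 to 11449287, plus strand) start 21 bp apart and overlap at their first exons. Col4a3 and Col4a4 start 72 bp apart on chromosome 1, and Col4a5 and Col4a6 start 1309 bp apart on the X chromosome. The starts of the collagen VI genes Col6a1 and Col6a2, by contrast, are 102538 bp apart on chromosome 10, on the same strand. The RefSeq promoter windows of 4 collagen IV genes and both collagen VI genes (build GRCm38.p6, 250 bases before to 50 after the start, 5′ to 3′ on the strand of the gene) are shown because the pairs differ in layout and in how alike their members' differences were. Capitals mark every CCAAT (or ATTGG) and GGGCGG (or CCGCCC), the CCAAT box and GC box, on either strand; TATAAA was searched too and occurs in none of the 6, and no matches overlap. The windows are chr8:11312777-11313076 (minus) for Col4a1, chr8:11312555-11312854 (plus) for Col4a2, chrX:141475169-141475468 (plus) for Col4a5, chrX:141474027-141474326 (minus) for Col4a6, chr10:76725995-76726294 (minus) for Col6a1 and chr10:76623581-76623880 (minus) for Col6a2.
Col4a1: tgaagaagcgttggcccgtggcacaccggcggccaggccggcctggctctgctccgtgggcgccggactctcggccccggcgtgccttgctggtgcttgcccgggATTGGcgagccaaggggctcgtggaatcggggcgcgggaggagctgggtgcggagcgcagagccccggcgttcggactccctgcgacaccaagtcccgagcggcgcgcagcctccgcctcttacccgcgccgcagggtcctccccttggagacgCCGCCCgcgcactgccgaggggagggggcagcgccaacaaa
Col4a2: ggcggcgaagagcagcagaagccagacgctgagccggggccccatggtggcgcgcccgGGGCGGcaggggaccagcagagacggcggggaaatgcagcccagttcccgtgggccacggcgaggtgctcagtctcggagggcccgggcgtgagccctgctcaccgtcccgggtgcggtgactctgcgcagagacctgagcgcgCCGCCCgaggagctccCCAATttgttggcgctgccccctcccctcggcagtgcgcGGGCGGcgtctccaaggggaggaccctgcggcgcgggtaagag
Col4a5: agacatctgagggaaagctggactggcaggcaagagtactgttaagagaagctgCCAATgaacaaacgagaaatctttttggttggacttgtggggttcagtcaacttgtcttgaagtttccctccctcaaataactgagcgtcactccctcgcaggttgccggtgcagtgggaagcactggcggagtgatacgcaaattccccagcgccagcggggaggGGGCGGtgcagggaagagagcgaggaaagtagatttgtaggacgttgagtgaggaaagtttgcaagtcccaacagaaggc
Col4a6: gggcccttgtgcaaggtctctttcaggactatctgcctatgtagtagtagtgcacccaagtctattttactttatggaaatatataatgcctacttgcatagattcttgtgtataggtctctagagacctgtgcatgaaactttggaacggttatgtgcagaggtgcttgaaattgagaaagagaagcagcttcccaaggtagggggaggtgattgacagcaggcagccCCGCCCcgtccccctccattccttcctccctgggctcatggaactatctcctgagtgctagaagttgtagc
Col6a1: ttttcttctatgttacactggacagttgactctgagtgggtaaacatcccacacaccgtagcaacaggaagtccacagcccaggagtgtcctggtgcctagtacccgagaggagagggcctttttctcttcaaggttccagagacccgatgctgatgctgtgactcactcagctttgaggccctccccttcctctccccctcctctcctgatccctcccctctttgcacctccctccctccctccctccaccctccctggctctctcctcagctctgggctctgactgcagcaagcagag
Col6a2: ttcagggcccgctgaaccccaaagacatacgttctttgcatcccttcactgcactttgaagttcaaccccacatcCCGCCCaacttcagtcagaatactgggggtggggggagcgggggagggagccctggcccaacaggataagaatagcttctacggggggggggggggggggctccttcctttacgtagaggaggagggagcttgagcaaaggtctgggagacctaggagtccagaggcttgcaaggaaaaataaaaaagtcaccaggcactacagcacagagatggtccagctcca

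The windows of Col4a1 and Col4a2 share 78 bp, read on opposite strands. Each holds a CCAAT box, and they hold 1 and 3 GC boxes; among 32851 promoter windows of the same length 37.4% hold CCAAT and 35.7% GGGCGG. The Col4a5 window has 1 CCAAT and 1 GC box, that of Col4a6 1 GC box and no CCAAT, that of Col6a2 1 GC box, and that of Col6a1 neither. Of the 37 tested members 27 matched a window, of which 8 held CCAAT, 20 GGGCGG and 1 TATAAA, which 13.6% of all windows hold. These are matches of letters in one window per gene and say nothing of the factors bound there.

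Levels of Col4a1 in PCM were 9.07, 8.53 and 9.24 FPKM in shControl, 7.73, 7.78 and 9.18 in shNdufa5_1 and 10.02, 9.43 and 9.39 in those labelled shNdufa5_2. Those of Col4a1 in SCM were 13.6, 12 and 12 FPKM in shControl, 10.6, 10.7 and 10.1 in shNdufa5_1 and 12.3, 11.3 and 10.8 in those labelled shNdufa5_2. In each genotype the SCM libraries were all above the PCM libraries. Col4a1 rose in SCM by 0.45 ± 0.066 (SE, adjusted p = 2.94e-05) in shControl and 0.32 ± 0.066 (SE, adjusted p = 0.00133) in shNdufa5_1. Its difference of 0.23 in cells labelled shNdufa5_2 (adjusted p = 0.0199) lost its call without shNdufa5_2 replicate 2 or 3 in PCM or shNdufa5_2 replicate 1 in SCM (adjusted p = 0.062 to 0.0893).

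Col4a2 stood at 11.1, 11.3 and 10.9 FPKM in shControl, 11.4, 10.6 and 9.64 in shNdufa5_1 and 12.1, 11.1 and 12.9 in those labelled shNdufa5_2 in PCM. The Col4a2 values in SCM were 13.5, 15.4 and 15.8 FPKM in shControl, 12.5, 12.7 and 11.3 in shNdufa5_1 and 11.7, 12.2 and 13 in those labelled shNdufa5_2. The SCM libraries of shControl were above its PCM libraries, and the media overlapped in the other genotypes. Col4a2 rose in SCM by 0.39 ± 0.071 (SE, adjusted p = 0.000191) in shControl and was at 0.035 in cells labelled shNdufa5_2 (adjusted p = 0.769). In shNdufa5_1 its difference of 0.19 (adjusted p = 0.0393) lost its call without shNdufa5_1 replicate 2 or 3 in PCM or shNdufa5_1 replicate 1 or 2 in SCM (adjusted p = 0.0671 to 0.176). On the scale of FPKM sums the shControl values were -0.11 for Col4a1 and -0.18 for Col4a2.

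The other collagen IV genes, whose chains occur in fewer tissues, had smaller differences in shControl. In PCM, Col4a6 was at 5.92, 6.0 and 6.21 FPKM in shControl, 10.02, 9.97 and 9.9 in shNdufa5_1 and 6.94, 7.28 and 7.1 in those labelled shNdufa5_2. In SCM, Col4a6 was at 7.53, 8.77 and 7.3 FPKM in shControl, 12, 11.6 and 11.8 in shNdufa5_1 and 9.94, 9.76 and 10.2 in those labelled shNdufa5_2. Those of shNdufa5_1 were the highest in each medium, and SCM stood above PCM in each genotype. Col4a6 rose in SCM by 0.33 ± 0.052 (SE, adjusted p = 5.12e-05), 0.22 and 0.44 in the 3 genotypes. Its neighbour Col4a5, at 18.4 FPKM on average, differed by 0.094 (adjusted p = 0.196) in shControl and -0.025 (0.777) in shNdufa5_1, and rose by 0.30 (0.00277) in cells labelled shNdufa5_2.

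Levels of Col4a3 in PCM were 1.21, 1.3 and 1.72 FPKM in shControl, 2.66, 2.77 and 2.42 in shNdufa5_1 and 0.988, 0.809 and 1.04 in those labelled shNdufa5_2. Those of Col4a3 in SCM were 1.78, 1.46 and 1.53 FPKM in shControl, 2.25, 1.95 and 2.15 in shNdufa5_1 and 1.73, 1.86 and 1.92 in those labelled shNdufa5_2. The shNdufa5_1 libraries were the highest in each medium, and SCM was above PCM in those labelled shNdufa5_2. Col4a3 differed between the media by 0.11 (adjusted p = 0.322) in shControl and -0.21 (0.0749) in shNdufa5_1, and rose by 0.55 (0.000616) in cells labelled shNdufa5_2.

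Col4a4 stood at 3.4, 2.73 and 3.19 FPKM in shControl, 3.38, 4.52 and 3.5 in shNdufa5_1 and 2.3, 2.26 and 2.37 in those labelled shNdufa5_2 in PCM. The Col4a4 values in SCM were 3.44, 3.45 and 2.91 FPKM in shControl, 3.12, 2.93 and 2.93 in shNdufa5_1 and 3.39, 2.83 and 3.26 in those labelled shNdufa5_2. The lowest libraries were those labelled shNdufa5_2 in PCM, and the media overlapped in shControl. Col4a4 differed by 0.056 in shControl (adjusted p = 0.617). Its fall of 0.26 in shNdufa5_1 (adjusted p = 0.0355) was lost without shNdufa5_1 replicate 2 in PCM or shNdufa5_1 replicate 1, 2 or 3 in SCM (adjusted p = 0.0555 to 0.18). Its rise of 0.33 in cells labelled shNdufa5_2 (adjusted p = 0.0184) was lost without shNdufa5_2 replicate 2 in PCM or shNdufa5_2 replicate 1 or 3 in SCM (adjusted p = 0.0538 to 0.07).

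Col18a1 codes for a basement membrane collagen whose end fragment is endostatin. In PCM, Col18a1 was at 32, 31.7 and 30.3 FPKM in shControl, 35.1, 37.2 and 35.8 in shNdufa5_1 and 52.9, 51.2 and 52.1 in those labelled shNdufa5_2. In SCM, Col18a1 was at 53, 50.1 and 49.96 FPKM in shControl, 45.3, 46.2 and 44.2 in shNdufa5_1 and 60.6, 58.9 and 60.5 in those labelled shNdufa5_2. The libraries labelled shNdufa5_2 were the highest in each medium, and SCM stood above PCM in each genotype. The rise in SCM was 0.69 ± 0.034 (SE, adjusted p = 1.47e-10) in shControl, 0.32 ± 0.034 (SE, adjusted p = 3.48e-06) in shNdufa5_1 and 0.20 ± 0.034 (SE, adjusted p = 0.000572) in cells labelled shNdufa5_2. Col7a1, the collagen of anchoring fibrils, did not pass the test in any genotype (-0.13, -0.20 and -0.028).

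Collagen VI forms beaded filaments that link cells to the surrounding matrix. Levels of Col6a1 in PCM were 4.05, 4.2 and 4.42 FPKM in shControl, 5.82, 4.69 and 5.6 in shNdufa5_1 and 2.81, 2.53 and 2.53 in those labelled shNdufa5_2. Those of Col6a1 in SCM were 9.76, 10.8 and 10.7 FPKM in shControl, 16.6, 15.4 and 15.8 in shNdufa5_1 and 7.8, 6.92 and 7.61 in those labelled shNdufa5_2. Every SCM library was above every PCM library, with shNdufa5_1 the highest in each medium and cells labelled shNdufa5_2 the lowest. Col6a1 rose in SCM by 1.13 ± 0.069 (SE, adjusted p = 1.69e-09) in shControl, 1.42 ± 0.069 (SE, adjusted p = 3.14e-09) in shNdufa5_1 and 1.22 ± 0.069 (SE, adjusted p = 4.16e-08) in cells labelled shNdufa5_2.

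Col6a2 stood at 1.04, 0.991 and 0.923 FPKM in shControl, 2.07, 1.69 and 1.93 in shNdufa5_1 and 0.953, 1.23 and 1.02 in those labelled shNdufa5_2 in PCM. The Col6a2 values in SCM were 3.5, 3.65 and 2.99 FPKM in shControl, 3.8, 3.37 and 3.33 in shNdufa5_1 and 2.01, 2.19 and 1.87 in those labelled shNdufa5_2. SCM stood above PCM in each genotype, and shControl and shNdufa5_1 overlapped in SCM. Col6a2 rose by 1.14 ± 0.086 (SE, adjusted p = 1.9e-08), 0.64 ± 0.086 (SE, adjusted p = 3.53e-05) and 0.55 ± 0.086 (SE, adjusted p = 0.000342) in the 3 genotypes. The promoter windows of this pair lie far apart and share no bases.

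Fibrillar collagens form the cross-banded fibres of connective tissue. In PCM, Col3a1 was at 3.79, 4.52 and 4.51 FPKM in shControl, 9.29, 9.23 and 9.73 in shNdufa5_1 and 5.1, 4.99 and 5.33 in those labelled shNdufa5_2. In SCM, Col3a1 was at 7.07, 7.86 and 6.47 FPKM in shControl, 12, 11.6 and 11.6 in shNdufa5_1 and 7.47, 7.12 and 7.5 in those labelled shNdufa5_2. Libraries of shNdufa5_1 were the highest in each medium, and SCM stood above PCM in each genotype. Col3a1 rose in SCM by 0.62 ± 0.064 (SE, adjusted p = 5.49e-07) in shControl, 0.29 ± 0.064 (SE, adjusted p = 0.00191) in shNdufa5_1 and 0.45 ± 0.064 (SE, adjusted p = 0.000167) in cells labelled shNdufa5_2.

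Levels of Col5a3 in PCM were 0.599, 0.756 and 0.819 FPKM in shControl, 1.68, 2.56 and 1.62 in shNdufa5_1 and 2.11, 2.28 and 2.56 in those labelled shNdufa5_2. Those of Col5a3 in SCM were 1.85, 1.44 and 1.68 FPKM in shControl, 3.91, 3.63 and 3.49 in shNdufa5_1 and 3.68, 4.46 and 3.71 in those labelled shNdufa5_2. Within each medium the libraries of shNdufa5_1 and those labelled shNdufa5_2 were all above those of shControl. Col5a3, a minor chain of collagen V, rose in SCM by 0.62 ± 0.11 (SE, adjusted p = 0.00021), 0.68 and 0.58 in the 3 genotypes.

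Col5a1 stood at 13.9, 13.8 and 13.5 FPKM in shControl, 10.9, 10.8 and 10.8 in shNdufa5_1 and 14.2, 14.3 and 14 in those labelled shNdufa5_2 in PCM. The Col5a1 values in SCM were 18.8, 18 and 17.8 FPKM in shControl, 13.3, 13.9 and 13.2 in shNdufa5_1 and 17.4, 17.9 and 17.6 in those labelled shNdufa5_2. Those of shNdufa5_1 were the lowest in each medium, and SCM stood above PCM in each genotype. Col5a1, the main chain of collagen V, rose in SCM by 0.38 ± 0.033 (SE, adjusted p = 1e-07), 0.29 and 0.30, the first being -0.19 on FPKM sums.

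In PCM, Col1a1 was at 1.23, 1.39 and 1.4 FPKM in shControl, 1.56, 1.23 and 0.948 in shNdufa5_1 and 1.69, 1.56 and 1.64 in those labelled shNdufa5_2. In SCM, Col1a1 was at 2.61, 2.39 and 2.08 FPKM in shControl, 1.79, 1.96 and 1.85 in shNdufa5_1 and 2.27, 2.27 and 3.42 in those labelled shNdufa5_2. All SCM libraries were above all PCM libraries. Col1a1 rose in SCM by 0.52 ± 0.12 (SE, adjusted p = 0.0015) in shControl. The call of its rise in shNdufa5_1 (0.36, adjusted p = 0.0238) was lost without shNdufa5_1 replicate 2 or 3 in PCM or shNdufa5_1 replicate 2 or 3 in SCM (adjusted p = 0.0506 to 0.116). That in cells labelled shNdufa5_2 (0.46, adjusted p = 0.0119) was lost without shNdufa5_2 replicate 3 in SCM (adjusted p = 0.0597).

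Of the other collagens, Col8a1 codes for a short-chain network collagen. Levels of Col8a1 in PCM were 3.97, 3.77 and 4.05 FPKM in shControl, 6.35, 5.83 and 7.67 in shNdufa5_1 and 5.0, 4.89 and 4.96 in those labelled shNdufa5_2. Those of Col8a1 in SCM were 6.61, 6.26 and 7.56 FPKM in shControl, 10.6, 9.87 and 10.7 in shNdufa5_1 and 7.78, 7.89 and 7.78 in those labelled shNdufa5_2. The shNdufa5_1 libraries were the highest in each medium, and SCM stood above PCM in each genotype. Col8a1 rose in SCM by 0.66 ± 0.076 (SE, adjusted p = 1.95e-06), 0.59 and 0.57.

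The FACIT collagens Col16a1 and Col12a1 bind to the surface of fibrils. Col16a1 stood at 4.59, 4.03 and 4.36 FPKM in shControl, 4.15, 4.77 and 4.49 in shNdufa5_1 and 4.66, 5.3 and 4.84 in those labelled shNdufa5_2 in PCM. The Col16a1 values in SCM were 7.24, 7.22 and 7.69 FPKM in shControl, 6.51, 5.87 and 6.53 in shNdufa5_1 and 7.95, 7.6 and 8.66 in those labelled shNdufa5_2. SCM stood above PCM in each genotype, and shNdufa5_1 was the lowest in SCM. Col16a1 rose in SCM by 0.65 ± 0.065 (SE, adjusted p = 4.34e-07), 0.42 and 0.61.

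In PCM, Col12a1 was at 2.52, 2.6 and 2.7 FPKM in shControl, 3.11, 3.46 and 3.39 in shNdufa5_1 and 2.11, 1.74 and 1.96 in those labelled shNdufa5_2. In SCM, Col12a1 was at 3.0, 2.75 and 2.61 FPKM in shControl, 3.34, 2.71 and 3.27 in shNdufa5_1 and 2.49, 2.23 and 2.25 in those labelled shNdufa5_2. In PCM the 3 genotypes did not overlap, with shNdufa5_1 the highest and those labelled shNdufa5_2 the lowest. Col12a1 did not pass the test for SCM in any genotype, with 95% intervals of -0.10 to 0.23, -0.24 to 0.088 and 0.016 to 0.34.

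The remaining integrin chains bind mainly, though not only, ligands other than laminins, and Itgb7 among them belongs to receptors of lymphocytes. Levels of Itgb7 in PCM were 7.9, 9.33 and 8.95 FPKM in shControl, 8.41, 9.0 and 8.96 in shNdufa5_1 and 14.3, 15 and 14.8 in those labelled shNdufa5_2. Those of Itgb7 in SCM were 17.8, 18.5 and 17.5 FPKM in shControl, 7.09, 7.4 and 7.85 in shNdufa5_1 and 17.7, 16.3 and 18.2 in those labelled shNdufa5_2. In shControl the SCM libraries were far above the PCM libraries, in shNdufa5_1 slightly below them, and cells labelled shNdufa5_2 were high in both media. Itgb7 rose in SCM by 0.96 ± 0.058 (SE, adjusted p = 1.39e-09) in shControl and 0.23 ± 0.058 (SE, adjusted p = 0.0096) in cells labelled shNdufa5_2, and fell by 0.21 in shNdufa5_1 (adjusted p = 0.00775). Of the immune markers, Ptprc was at most 0.00333 FPKM and Cd68 at 0.751 to 10.2 FPKM, and their relation to Itgb7 was not tested.

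Itgav stood at 20.1, 19.3 and 20.7 FPKM in shControl, 17.3, 17.8 and 18.3 in shNdufa5_1 and 17, 18.7 and 18.5 in those labelled shNdufa5_2 in PCM. The Itgav values in SCM were 17, 17.4 and 17.5 FPKM in shControl, 16.1, 15.7 and 15.9 in shNdufa5_1 and 19.9, 20.4 and 21 in those labelled shNdufa5_2. In shControl and shNdufa5_1 the SCM libraries lay below the PCM libraries, and in those labelled shNdufa5_2 above them. Itgav, the alpha chain of several receptors for vitronectin and latent TGF-beta, fell in SCM by 0.20 in shControl (adjusted p = 0.00052) and by 0.15 in shNdufa5_1 (0.00792), and rose by 0.17 in cells labelled shNdufa5_2 (0.00796). Both falls turned to 0.11 and 0.11 once a trend with GC content and transcript length was removed.

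In PCM, Itgb5 was at 52.1, 54.1 and 49.6 FPKM in shControl, 48.3, 55.4 and 50.9 in shNdufa5_1 and 52.7, 51.8 and 52.3 in those labelled shNdufa5_2. In SCM, Itgb5 was at 70.8, 70.8 and 70.5 FPKM in shControl, 67.7, 65.8 and 65.8 in shNdufa5_1 and 57.9, 58.3 and 62.6 in those labelled shNdufa5_2. All SCM libraries were above all PCM libraries. Itgb5, a partner of the alpha V chain, rose in SCM by 0.44 ± 0.045 (SE, adjusted p = 5.39e-07), 0.36 and 0.18, the first being -0.16 on FPKM sums.

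Levels of Itga2 in PCM were 3.39, 3.46 and 3.95 FPKM in shControl, 2.76, 3.11 and 2.59 in shNdufa5_1 and 2.86, 2.99 and 2.92 in those labelled shNdufa5_2. Those of Itga2 in SCM were 2.44, 2.59 and 2.46 FPKM in shControl, 2.74, 3.1 and 2.56 in shNdufa5_1 and 2.94, 3.19 and 3.0 in those labelled shNdufa5_2. The PCM libraries of shControl were the highest and its SCM libraries the lowest but for an overlap with shNdufa5_1. Itga2, a collagen receptor chain, fell in SCM in shControl by 0.39 (adjusted p = 0.000198), and differed by -0.0074 (0.946) in shNdufa5_1 and 0.042 (0.725) in cells labelled shNdufa5_2.

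Itgb3 stood at 1.68, 1.64 and 2.18 FPKM in shControl, 1.57, 1.88 and 2.0 in shNdufa5_1 and 1.17, 1.48 and 1.75 in those labelled shNdufa5_2 in PCM. The Itgb3 values in SCM were 2.27, 2.65 and 2.94 FPKM in shControl, 4.06, 3.26 and 4.16 in shNdufa5_1 and 2.67, 2.26 and 3.31 in those labelled shNdufa5_2. All SCM libraries were above all PCM libraries. Itgb3, another partner of alpha V, rose in SCM by 0.77 in shNdufa5_1 and 0.60 in cells labelled shNdufa5_2. Its shControl difference of 0.35 (adjusted p = 0.0237) lost its call without shControl replicate 1 or 2 in PCM or shControl replicate 2 or 3 in SCM (adjusted p = 0.0562 to 0.091).

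**Figure D3:**
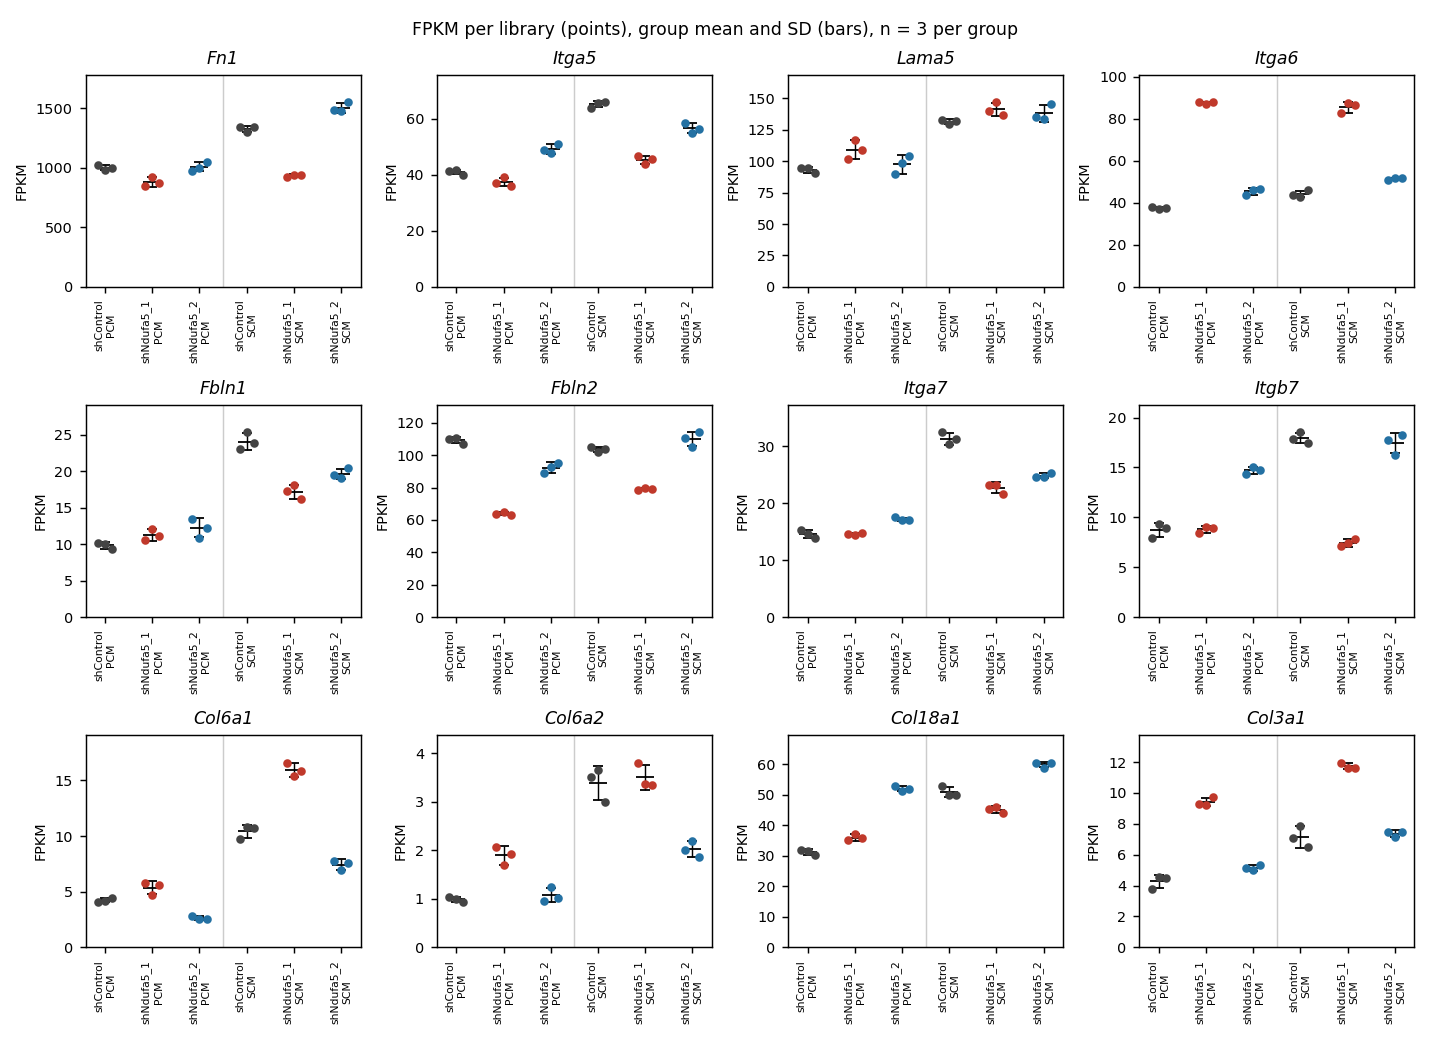
FPKM of 12 genes in each library (points) with group mean and SD (bars, n = 3), PCM groups left and SCM groups right of the line in each panel, in shControl (grey), shNdufa5_1 (red) and cells labelled shNdufa5_2 (blue); every axis starts at 0. Fbln1, Itga7 and Col6a1 are higher in all SCM libraries than in all PCM libraries, and Itgb7 in shNdufa5_1 is at most 9.0 FPKM in both media.

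Genes of other matrix lists were read against the same shares of all genes. Of these 31.7% rose and 30.2% fell in SCM in shControl, 22.5% and 19.8% in shNdufa5_1, and 11.7% and 11.1% in cells labelled shNdufa5_2. The lists themselves were not tested. Their values, here and in the next paragraph, are on the deposited scale and were not checked on the others. In shControl the median of all genes moved by -0.20 on total fragments and -0.50 on FPKM sums. Of 24 listed genes of collagen biosynthesis and crosslinking 18 were tested, and 13 rose and 2 fell in SCM in shControl, 14 and 2 in shNdufa5_1, and 12 and 1 in cells labelled shNdufa5_2, with medians of 0.45, 0.30 and 0.24. Bmp1, which cleaves procollagen, rose by 0.97, 0.44 and 0.46, the lysyl hydroxylase Plod1 by 0.56, 0.61 and 0.43, and the prolyl hydroxylase P4ha1 by 0.67, 0.50 and 0.50. Serpinh1, the collagen chaperone HSP47, rose by 0.63 in shControl and 0.35 in shNdufa5_1, and Loxl4, a crosslinking oxidase, fell by 0.52, 0.22 and 0.22.

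Of 16 tested glycoproteins and proteoglycans of the matrix, 11, 12 and 15 rose in SCM and 1, 1 and 0 fell, in shControl, shNdufa5_1 and cells labelled shNdufa5_2. Ecm1 rose by 1.00, 0.85 and 0.61, Hspg2, the basement membrane proteoglycan perlecan, by 0.56, 0.29 and 0.50, and Sparc, a collagen-binding protein, by 0.73, 0.41 and 0.19. Nid1, which joins laminin to collagen IV, was at -0.072 in shControl and did not pass there, but rose by 0.32 and 0.48 in the other 2 genotypes. Among 23 tested integrin adaptors and signalling genes 11 rose and 7 fell in shControl, 8 and 2 in shNdufa5_1 and 3 and 3 in cells labelled shNdufa5_2, with medians of 0.11, 0.073 and 0.025. Cd151, a tetraspanin that binds laminin receptors, rose by 0.67, 0.32 and 0.24, while the adaptor Lims1 fell by 0.43 and 0.42 in shControl and shNdufa5_1. Of 12 tested proteases and inhibitors 7 rose and 3 fell in shControl, 5 and 4 in shNdufa5_1, and 8 and 1 in cells labelled shNdufa5_2; of 8 other matrix receptors it was 5 and 1, 6 and 1, and 5 and 0.

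The next comparison set each hairpin against shControl in PCM. With shNdufa5_1, 18 of the 37 tested members were higher, 6 lower and 13 did not pass the test, where 25.6% of all genes tested were higher and 27.1% lower. Itga6 rose most, by 1.20 ± 0.033 (SE, adjusted p = 5.48e-13), from 37.5 ± 0.422 to 87.6 ± 0.331 FPKM (SD, n = 3), and without any overlap of the libraries. Col3a1 (0.99), Col5a3 (0.76), Col4a6 (0.64) and Col8a1 (0.62) followed, and of the 17 collagens tested 11 rose and 1 fell. Fbln2 fell by 0.77 (adjusted p = 6.21e-11), Col5a1 by 0.32 (1.2e-06), Itga2 by 0.27 (0.00535) and Fn1 by 0.19 (0.000314).

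Within collagen IV, the pair on the X chromosome rose with shNdufa5_1, Col4a5 by 0.56 ± 0.061 (SE, adjusted p = 1.83e-06) and Col4a6 by 0.64 ± 0.052 (SE, adjusted p = 6.63e-08), and also Col4a3 (0.59). Col4a1 and Col4a2 differed by -0.11 and -0.070 and did not pass the test (adjusted p = 0.174 and 0.43). Lama5 rose by 0.22 and Itgb1 by 0.26. In this comparison, the sign turned on FPKM sums for Lamb1. At the same sign, the call was lost on FPKM sums for Col12a1, Col18a1, Col6a1, Itga3, Itgb1, Itgb4 and Lama5; with quantile normalization for Itgb4; with the trend of GC content and length removed for Col12a1. Lamb1 rose by 0.10, which was -0.030 on FPKM sums. The median of all genes was -0.12 on that scale. The members split 10 higher to 6 lower there, and all genes tested 1403 to 3673.

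In cells labelled shNdufa5_2, which share their controls with that comparison, 11 members were higher than in shControl in PCM, 8 lower and 18 did not pass, where 19.3% of all genes were higher and 16.3% lower. Their split was 7 higher and 12 lower on total fragments, and 3 and 23 on FPKM sums, with medians of all genes at -0.070 and -0.30. All genes tested split 1329 higher to 2912 lower on total fragments, and 139 to 6315 on FPKM sums. Col5a3 rose by 0.94 ± 0.11 (SE, adjusted p = 1.57e-05), Col18a1 by 0.71 ± 0.034 (SE, adjusted p = 4.55e-09) and Itgb7 by 0.69 ± 0.058 (SE, adjusted p = 4.83e-07), each without overlap and each above 0 on both scales. Col6a1 fell by 0.53 (adjusted p = 3.14e-05) and Fbln2 by 0.24 (3.67e-05). Col12a1, Col4a4 and Col4a3 differed by -0.30, -0.31 and -0.30, and the calls of the latter 2 were lost, for Col4a4 without shControl replicate 1 or 3 in PCM (adjusted p = 0.0545 to 0.077) and for Col4a3 without shControl replicate 3 in PCM or shNdufa5_2 replicate 2 in PCM (adjusted p = 0.0745 to 0.0989). Itga6 was 0.27 higher and Fbln1 0.28, values of -0.075 and -0.049 on FPKM sums. Among the calls, the sign turned on FPKM sums for Col3a1, Col4a6, Col8a1, Fbln1, Itga5, Itga6, Itga7 and Lamc1; with the trend of GC content and length removed for Itgav. In the same direction, the call was lost on total fragments for Col3a1, Col4a6, Col8a1 and Lamc1; with quantile normalization for Itga2 and Lamc1; with the trend of GC content and length removed for Col12a1, Itga2 and Itgb1.

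**Figure D4:**
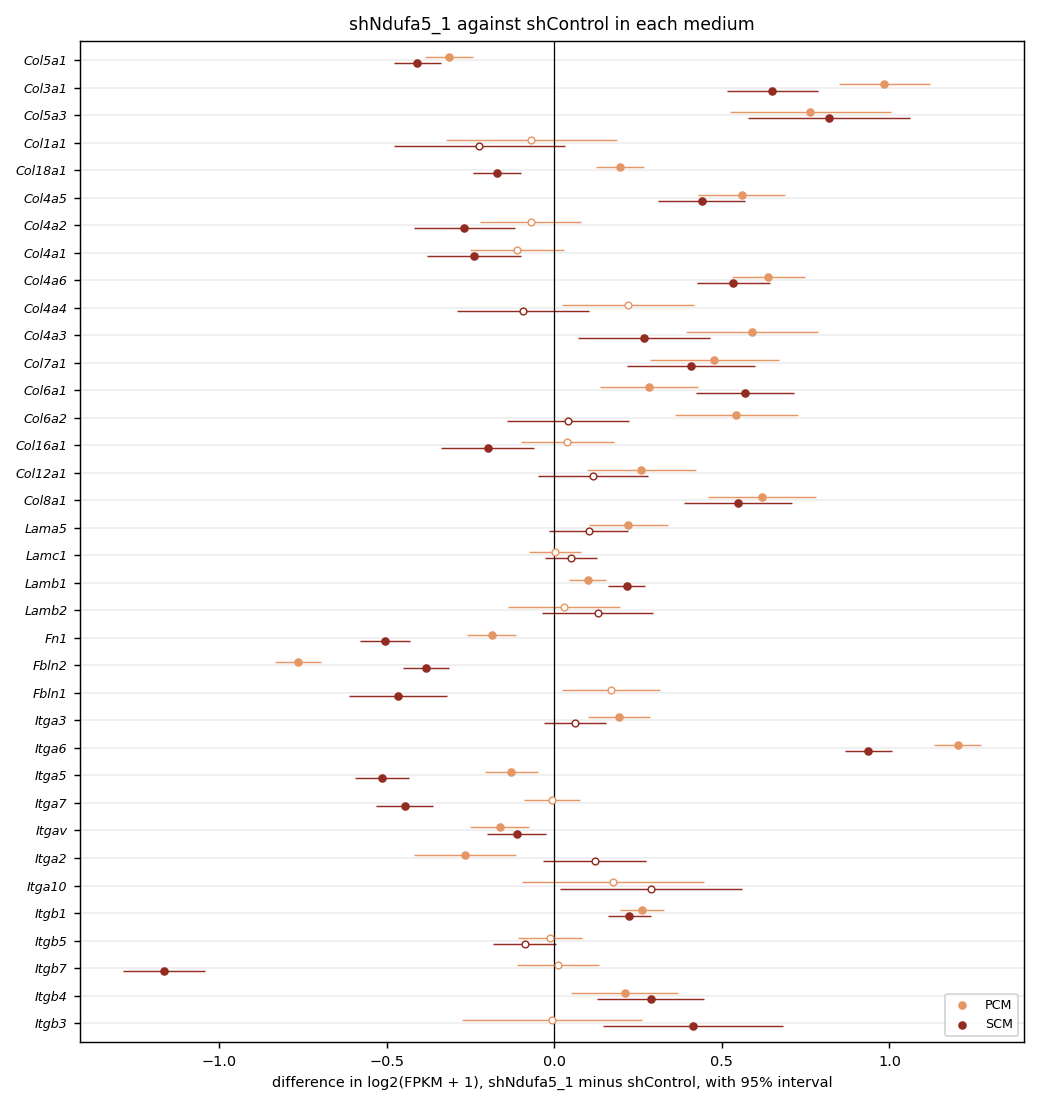
Difference between shNdufa5_1 and shControl in log2(FPKM + 1) for 36 of the 37 tested genes in PCM (orange) and SCM (dark red), with 95% intervals; filled points passed the test at an adjusted p under 0.05. Itga6 lies farthest right in both media, and Itgb7 lies at 0.011 in PCM and at -1.16 in SCM.

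In SCM, 14 members were higher with shNdufa5_1 than in shControl, 12 lower and 11 did not pass, where 28.7% of all genes were higher and 31.1% lower. Itga6 (0.94), Col5a3 (0.82), Col3a1 (0.65) and Col6a1 (0.57) had some of the largest rises. Itgb7 fell by 1.16 (adjusted p = 1.52e-10), from 17.9 ± 0.530 to 7.45 ± 0.382 FPKM (SD, n = 3). Fibronectin and the alpha chain of its receptor were lower, Fn1 by 0.51 (adjusted p = 5.86e-09) and Itga5 by 0.51 (1.22e-08), as were Fbln1 (-0.47) and Itga7 (-0.45). The beta chain of that receptor, Itgb1, was called higher, at 229.2 FPKM on average with shNdufa5_1 and 196 in shControl. For shNdufa5_1 in SCM, the sign turned on total fragments for Col18a1 and Itgav; on FPKM sums for Col16a1, Col18a1, Col4a1, Col4a2, Fbln2 and Itgav; with quantile normalization for Col18a1 and Fn1. Keeping their sign, the call was lost on total fragments for Col16a1, Col4a1 and Col4a2; on FPKM sums for Col5a1, Fbln1, Fn1, Itga5 and Itga7; with quantile normalization for Col4a3, Fbln2 and Itgav; with the trend of GC content and length removed for Col16a1, Col18a1, Col4a1, Col4a2 and Col4a3. The Fn1 value was 0.065 with quantile normalization. The members split 21 higher and 7 lower on total fragments, and 26 and 1 on FPKM sums, with medians of all genes at 0.15 and 0.34. All genes tested split 4841 higher to 2216 lower on total fragments, and 6352 to 998 on FPKM sums.

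In cells labelled shNdufa5_2 in SCM, again against the same controls, 9 members were higher, 8 lower and 20 did not pass, where 13.9% of all genes were higher and 20% lower. Col5a3 was higher by 0.90 ± 0.11 (SE, adjusted p = 2.99e-05), Col4a6 by 0.31, Lamb1 by 0.26, Itgav by 0.23 and Col18a1 by 0.23. Col6a2 fell by 0.53 (adjusted p = 0.000251), Col6a1 by 0.44 (0.000196), Itga7 by 0.32 (2.42e-05) and Fbln1 by 0.28 (0.00563), the last being 0.0019 on FPKM sums. For these libraries, the sign turned on FPKM sums for Col4a2, Fbln1, Itga3, Itga5 and Itgb5; with quantile normalization for Itga3. With no change of sign, the call was lost on total fragments for Col4a2 and Itga3; on FPKM sums for Col6a1 and Itga7; with quantile normalization for Itga2, Itga5 and Itgb5; with the trend of GC content and length removed for Col4a2, Itga2 and Itgav. The split was 14 higher and 6 lower on total fragments, and 20 and 1 on FPKM sums, with medians of all genes at 0.068 and 0.23. All genes tested split 2711 higher to 1265 lower on total fragments, and 4753 to 184 on FPKM sums. In collagen biosynthesis 3 of 18 tested genes were higher and 10 lower with shNdufa5_1 in SCM, where 28.7% and 31.1% of all genes were. In cells labelled shNdufa5_2 it was 3 and 7, with 13.9% and 20% of all genes. In PCM these counts were 5 and 4, with 25.6% and 27.1%, and 10 and 2, with 19.3% and 16.3%. The counts of this list are on the deposited scale and were not checked on the others.

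**Figure D5:**
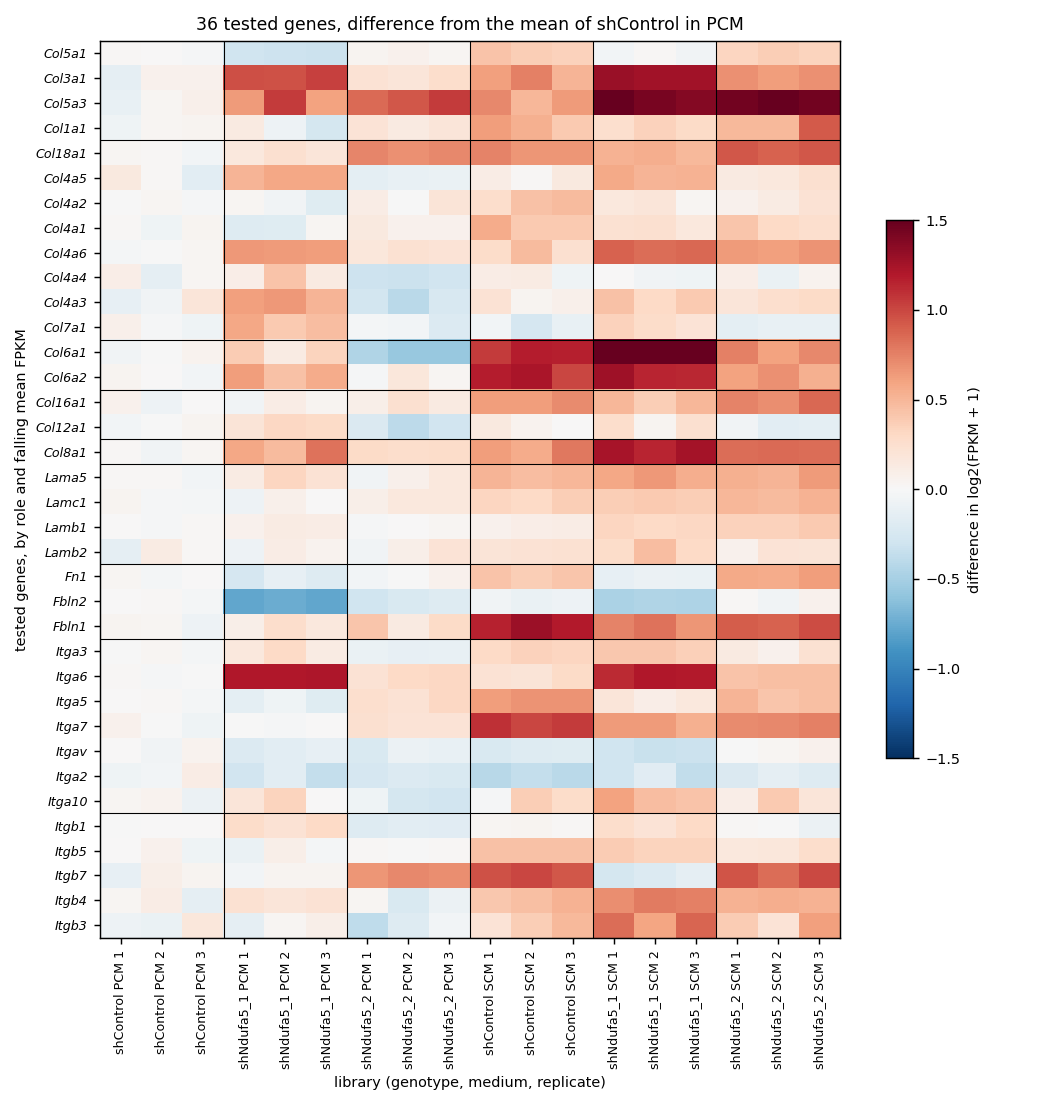
Difference of each library from the mean of shControl in PCM, in log2(FPKM + 1), for 36 of the 37 tested genes (rows, by role and falling mean level) in the 18 libraries (columns, by group); colours are saturated beyond -1.5 and 1.5. Libraries of a group have like colours, and the Itga6 row is red in all 6 shNdufa5_1 libraries.

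The last comparison asked whether the response to SCM differed between genotypes, as a difference of differences. A positive value means a more positive response with the hairpin. With shNdufa5_1, 4 members had a positive and 9 a negative value past the test, where 10.7% and 15.5% of all genes were called, and 24 did not pass. In cells labelled shNdufa5_2, with the same controls, 7 were positive and 8 negative, where 18.9% and 24.1% were called. With both hairpins averaged, 4 were positive and 10 negative, with 17.2% and 21.5%. Total fragments gave 9 positive and 6 negative calls for shNdufa5_1, 13 and 6 for cells labelled shNdufa5_2 and 13 and 6 for the average. Of all genes, 3315 were called positive and 771 negative, 3551 and 1417, and 4075 and 1203. FPKM sums gave 20 and 1, 28 and 0, and 30 and 1, with the median of all genes moved to 0.46, 0.52 and 0.50. Of all genes, 6988 and 85, 7337 and 93, and 7950 and 108 were called on that scale.

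Among the tested members Itgb7 had the largest such difference, -1.18 ± 0.081 (SE, adjusted p = 1.06e-07) for shNdufa5_1 and -0.73 ± 0.081 (SE, adjusted p = 4.9e-06) for cells labelled shNdufa5_2. For Fbln1 it was -0.64 ± 0.10 (SE, adjusted p = 0.000177) and -0.56 ± 0.10 (SE, adjusted p = 0.000283), for Col6a2 -0.50 ± 0.12 (SE, adjusted p = 0.00641) and -0.59 ± 0.12 (SE, adjusted p = 0.00112), and for Itga7 -0.44 ± 0.056 (SE, adjusted p = 3.6e-05) and -0.54 ± 0.056 (SE, adjusted p = 2.59e-06). Fbln2 and Itga2 went the other way, Fbln2 by 0.38 and 0.33 and Itga2 by 0.39 and 0.44. Col18a1 was at -0.37 and -0.49 and Itga5 at -0.39 and -0.46. For Fn1 it was -0.32 with shNdufa5_1 (adjusted p = 0.000192) and 0.17 in cells labelled shNdufa5_2 (0.0102), and the former turned to 0.32 with quantile normalization and 0.23 on FPKM sums. On FPKM sums the values of Fbln1 were -0.11 and 0.050 and those of Itga7 0.091 and 0.078, below the medians of all genes on that scale, while those of Itgb7 were -0.66 and -0.13. With shNdufa5_1, the sign turned on FPKM sums for Col18a1, Col3a1, Fn1, Itga5, Itga6 and Itga7; with quantile normalization for Fn1. Within the same sign, the call was lost on total fragments for Col3a1, Fn1 and Itga6; on FPKM sums for Col6a2 and Fbln1; with quantile normalization for Itga5. For cells labelled shNdufa5_2, the sign turned on FPKM sums for Col18a1, Col4a2, Fbln1, Itga5, Itga7 and Itgb5; with quantile normalization for Itgb5; with the trend of GC content and length removed for Itgb1. Still of one sign, the call was lost on total fragments for Col4a2 and Itgb5; on FPKM sums for Col6a2 and Itgb7; with the trend of GC content and length removed for Col4a2, Col4a3, Itga2, Itgav and Itgb5. For Lama5 and Lamc1 the difference of responses did not pass the test for either hairpin, with 95% intervals of -0.29 to 0.048 and -0.16 to 0.17 for Lama5 and -0.061 to 0.16 and -0.071 to 0.15 for Lamc1.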

How the data were processed

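RNA of KPCA.B cells was sequenced as 18 libraries in 6 groups of 3, assigned from the labels' titles and characteristics. The authors deposited FPKM values per gene; the submitters' processing notes name STAR 2.6.1, DESeq2 and the builds GRCm38 and mm10, while a counter and the FPKM denominator are named in none of the sources used here. For single-transcript genes, 99.5% to 99.8% of the low values (at most 20 fragments) were whole fragments within a tolerance of 0.1, which gave depths of 13.8 to 38.9 M fragments. Genes with a mean of at least 1 FPKM over the 18 libraries (11084) were tested with limma 3.58.1 in R 4.3.3 on log2(FPKM + 1), with 1 coefficient per group, an intensity trend and the spread shared by all groups; the test is two-sided, p-values were adjusted by the Benjamini-Hochberg method over all tested genes, and a call needs an adjusted p under 0.05. Because the values are FPKM and not counts, no count test was the main result.

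Of the members, a set chosen for its roles and, per comparison, the 5 called with the largest rise and the 5 with the largest fall are given in every library (Lama3 and Lamb3, which were not tested, by their range); members outside both appear only with differences or means. The values of 1 tested member, which is in the counts, are not reported here. The members and all gene lists were chosen with earlier results of these data known. Alternatives were other pseudocounts (0.1 and 0.5), other filters, 3 other scalings (to the FPKM sum of each library, to its total fragments, and quantile normalization), removal of GC content and length trends, the replicate number as a block, fits of the contrast's groups alone, leaving out each library, and leaving out the 6 libraries labelled shNdufa5_2; the last and the scaling to total fragments were added after seeing the data. The code was tested on simulated data. Gene models are GENCODE vM21, and promoter windows RefSeq, GRCm38.p6, found for 62 of the 86 members.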

Additional observations from a re-analysis of the deposited data

Results flagged for a closer look

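The response to SCM differed from that of shControl, by the test of the difference of differences in log2(FPKM + 1) (limma, adjusted p under 0.05), for 13 of the 37 tested members with shNdufa5_1 and for 15 in cells labelled shNdufa5_2. Over all genes tested 10.7% had a positive and 15.5% a negative difference past the test with shNdufa5_1, and 18.9% and 24.1% in cells labelled shNdufa5_2, so that the share of members called with the latter label was close to that of all genes. With shNdufa5_1 the values were Itgb7 (-1.18), Fbln1 (-0.64), Col6a2 (-0.50), Itga7 (-0.44), Itga2 (0.39), Itga5 (-0.39), Fbln2 (0.38), Col18a1 (-0.37), Col3a1 (-0.33), Fn1 (-0.32), Col6a1 (0.29), Itga6 (-0.27) and Lamb1 (0.12). In cells labelled shNdufa5_2 they were Itgb7 (-0.73), Col6a2 (-0.59), Fbln1 (-0.56), Itga7 (-0.54), Col18a1 (-0.49), Itga5 (-0.46), Itga2 (0.44), Col4a3 (0.44), Itgav (0.37), Col4a2 (-0.36), Fbln2 (0.33), Lamb1 (0.26), Itgb5 (-0.25), Fn1 (0.17) and Itgb1 (0.13). Both sets share the 6 shControl libraries. The calls of Col6a1 and Lamb1 with shNdufa5_1 and of Itgb1 in cells labelled shNdufa5_2 were each lost on leaving out any of 6 libraries. On the scale of FPKM sums, on which the median of all genes moved to 0.46 and 0.52, several of the negative values turned positive, and their values on that scale are among those on the processing. No other cause of these differences was tested.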

How the results depend on the processing

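A single cell line, 3 libraries a group and a hairpin whose target hardly fell in cells labelled shNdufa5_2 limit what the comparisons can show. The depth leaves 32 of the 86 genes at 10 fragments or fewer in every library, and intervals from these fragments would cover counting error only. The number of called members stayed within 1.5 times its value under every alternative run except the FPKM sums. Those gave 21, 28 and 31 called members in the differences of response for shNdufa5_1, shNdufa5_2 and both averaged, in place of 13, 15 and 14. Of all genes tested, 6988, 7337 and 7950 were called higher on that scale, and 85, 93 and 108 lower. The split of higher to lower calls moved more and stands with each comparison. With each library left out, the counts ran 26 to 29, 24 to 28 and 28 to 31 for SCM in the 3 genotypes, 23 to 25 and 16 to 20 for the hairpins in PCM, 23 to 27 and 16 to 18 in SCM, and 11 to 14, 14 to 16 and 11 to 14 for the differences of response. Beside the losses given by gene, single libraries ended calls against shControl in PCM for Itga5 and Itgb4 with shNdufa5_1. In cells labelled shNdufa5_2 they did so for Col3a1, Itga2 and Itgav. In SCM this held for Col16a1, Col4a3 and Itgav with shNdufa5_1, and for Itga2 in cells labelled shNdufa5_2. For both averaged it held for Col3a1, Col4a2 and Itgb5. Of 330 differences of named members, each of the pseudocounts 0.1 and 0.5 lost 2 calls and gained 1, and neither turned a sign. Dropping the filter on the mean lost 12 calls. Fitting only the groups of the contrast lost 14 and gained 3. Over all the fits that left out 1 library, 88 calls were lost and 26 gained.

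Libraries with the same replicate number did not deviate together (r of their deviations from the group means -0.0925 to 0.0646, median 0.00672), and 1 library matched best a library of its own number. With the number as a replicate block, 28, 26 and 31 members were called for SCM, 24 and 19 for the hairpins in PCM, 26 and 18 in SCM, and 14, 15 and 15 for the differences of response; of the 330 differences the block lost 2 calls and gained 3.

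Rescaled to FPKM sums, the sign turned for SCM in shControl Col4a1 -0.11, Col4a2 -0.18, Col4a6 -0.20, Col5a1 -0.19, Fn1 -0.21, Itga3 -0.28, Itga6 -0.36, Itgb3 -0.065, Itgb5 -0.16, Lama5 -0.11, Lamb1 -0.51 and Lamc1 -0.28, for shNdufa5_1 in PCM Lamb1 -0.030, and for shNdufa5_2 in PCM Col3a1 -0.073, Col4a6 -0.11, Col8a1 -0.020, Fbln1 -0.049, Itga5 -0.092, Itga6 -0.075, Itga7 -0.12 and Lamc1 -0.22. It turned as well for shNdufa5_1 in SCM Col16a1 0.17, Col18a1 0.24, Col4a1 0.15, Col4a2 0.12, Fbln2 0.034 and Itgav 0.28, for shNdufa5_2 in SCM Col4a2 0.019, Fbln1 0.0019, Itga3 0.11, Itga5 0.089 and Itgb5 0.046, and for the response of shNdufa5_1 Col18a1 0.17, Col3a1 0.13, Fn1 0.23, Itga5 0.16, Itga6 0.27 and Itga7 0.091. On the same scale it turned for that of shNdufa5_2 Col18a1 0.15, Col4a2 0.25, Fbln1 0.050, Itga5 0.18, Itga7 0.078 and Itgb5 0.39, and for both averaged Col18a1 0.16, Col3a1 0.25, Col4a2 0.28, Itga5 0.17, Itga6 0.42, Itga7 0.085 and Itgb5 0.43. Rescaled to total fragments, the sign turned for SCM in shControl Itga6 -0.013 and Lamb1 -0.15, for shNdufa5_1 in SCM Col18a1 0.015 and Itgav 0.067, and for both averaged Itga6 0.027 and Itgb5 0.028. With quantile normalization, the sign turned for SCM in shControl Fn1 -0.38, Itga3 -0.19, Lamb1 -0.21 and Lamc1 -0.011, for shNdufa5_1 in SCM Col18a1 0.069 and Fn1 0.065, and for shNdufa5_2 in SCM Itga3 0.016. It turned as well for the response of shNdufa5_1 Fn1 0.32, for that of shNdufa5_2 Itgb5 0.013, and for both averaged Itgb5 0.066. With the trend of GC content and length removed, without or with the replicate block, the sign turned for SCM in shControl Itgav 0.11, for SCM in shNdufa5_1 Itgav 0.11, and for shNdufa5_2 in PCM Itgav 0.036. It turned as well for that of shNdufa5_2 Itgb1 -0.042. The cause of these changes was not tested beyond the shift of the median of all genes given with each comparison.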

Other observations

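Genes that cleave, bind or sense the matrix but are no members also differed with the hairpins, on the deposited scale. The counts of lists here stand beside the shares of all genes called higher and lower, which were 25.6% and 27.1% with shNdufa5_1 in PCM, 28.7% and 31.1% in SCM, and 19.3% and 16.3%, and 13.9% and 20%, in cells labelled shNdufa5_2; several counts are near them, and no list was tested. Plau, the urokinase that activates plasmin, was higher than in shControl by 1.92 with shNdufa5_1 in PCM and 1.74 in SCM (limma, adjusted p = 3.35e-10 and 4.99e-10), and by 0.69 and 0.72 in cells labelled shNdufa5_2. Npnt, nephronectin, a ligand of the integrin of alpha 8 and beta 1, was higher by 1.26 and 1.35 with shNdufa5_1, while Itga8 was among the members with too low a level to be tested. Thbs1, a matrix glycoprotein that can activate latent TGF-beta, was higher by 0.78 and 1.17 with shNdufa5_1 and lower in PCM in cells labelled shNdufa5_2 (-0.51). Of 12 tested proteases and inhibitors 8 higher and 2 lower calls were made with shNdufa5_1 in PCM and 5 higher and 3 lower in SCM, against 4 higher and 3 lower and 4 higher and 2 lower in cells labelled shNdufa5_2.

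Of 23 tested integrin adaptors and signalling genes, 13 higher and 7 lower were called with shNdufa5_1 in PCM and 8 higher and 11 lower in SCM, and 9 higher and 6 lower and 4 higher and 10 lower in cells labelled shNdufa5_2. Lims1, an adaptor of integrin-linked kinase, fell with shNdufa5_1 in PCM by 0.49 and in cells labelled shNdufa5_2 by 0.39, and Fermt2, which activates integrins, by 0.43 and 0.31. Of 16 tested glycoproteins and proteoglycans, 6 higher and 8 lower were called with shNdufa5_1 in SCM and 7 higher and 3 lower in cells labelled shNdufa5_2. Sparc fell there by 0.50 and 0.73, and Hspg2 by 0.57 with shNdufa5_1. Rpsa, a ribosomal protein gene that also codes for a laminin receptor, rose in SCM in shControl by 1.22 and fell by 0.99 with shNdufa5_1 in SCM.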
